A study of Mus musculus with 14 samples.

Results

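The acinar digestive enzyme genes are a list of 31 genes that encode the enzymes, granule proteins, inhibitors, transcription factors and helper proteins of the exocrine pancreas. A gene counted as measured when a probe set of the array had that gene as its single symbol, and the probe set with the highest mean over the arrays was used. By this rule 26 of the 31 genes were measured, among 18820 measured genes in all. Cela2a and Rbpjl had probe sets shared with another symbol only, and Pnlip and Klk1 had none of their own. Spink3 is listed on this array under its current symbol Spink1 and is described separately.

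The study measured mRNA in pancreatic islets of C57BL/6 mice that were wild type (WT) or lacked both Tlr2 and Tlr4 (double knockout, DKO, on that background). Tlr2 and Tlr4 encode Toll-like receptors for microbial products. All 4 groups ate a diet with 60% fat from 6 weeks of age, for 5 weeks (4 arrays from WT mice, 2 from DKO) or 7 months (4 from each genotype), so age and time on the diet cannot be told apart. Each of the 14 arrays is labelled as the islets of a single mouse, frozen after collection, and no group on another diet is part of the comparison.

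Acinar cells make up most of the pancreas and store inactive enzyme precursors in zymogen granules, which they release into the ducts. Islets are embedded in this tissue and are freed from it during isolation, and acinar transcripts, among the most abundant in the organ, are commonly detected in islet preparations. Acinar enzyme genes share control by the PTF1 complex, in which Ptf1a pairs with a common basic helix-loop-helix partner and with Rbpjl, and which binds an E-box together with a TC-box. In RNA from whole islet preparations, more acinar cells and more acinar RNA per cell cannot be told apart.

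Values are the log2 signals that the authors deposited, so a difference of 1 is a 2-fold difference. The array medians lay between 3.89 and 3.98. The islet label was borne out by the insulin gene Ins2, at 11.76 to 11.99 on the 14 arrays. Tlr2, one of the deleted genes, was 1.66 ± 0.12 lower in DKO at 5 weeks (SE; limma adjusted p = 9.71e-06) and 1.06 ± 0.10 lower at 7 months (adjusted p = 1.61e-05), with no overlap between genotypes. Tlr4 did not pass the threshold of 0.05 at either time, with means of 2.86 in WT and 3.21 in DKO at 5 weeks and 3.00 and 3.30 at 7 months, all below the array medians. Its probe set was not placed relative to the deletion, so it checks no label. DKO replicate 4 at 7 months stood apart in markers of other cells. The mean of 7 lymphocyte genes, each centred on its mean, was 1.77 there and -0.35 to 0.05 on every other array, and the T cell gene Cd3e was 5.44 against 2.37 to 3.43. The same array was highest of all 14 for 6 of these 7 genes, 8 of 9 stellate cell and fibroblast genes and 6 of 8 macrophage genes.

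The 250 bases before the transcription start are shown for 5 acinar genes to show what their promoters share and where they differ. Cpa1 and Cel stand for the enzymes that moved together from array to array, Sycn for a gene that departed from them with time, and Prss2 and Prss3 for a pair of trypsinogen genes of which the first followed the other acinar genes and the second did not. The sequences are from RefSeq on mouse build GRCm38.p6, written 5′ to 3′ on the gene's strand. Capitals mark TTTCCC (the TC-box) and the E-boxes CACCTG and CAGCTG, on either strand.
Cpa1, chr6:30638968-30639217, plus strand: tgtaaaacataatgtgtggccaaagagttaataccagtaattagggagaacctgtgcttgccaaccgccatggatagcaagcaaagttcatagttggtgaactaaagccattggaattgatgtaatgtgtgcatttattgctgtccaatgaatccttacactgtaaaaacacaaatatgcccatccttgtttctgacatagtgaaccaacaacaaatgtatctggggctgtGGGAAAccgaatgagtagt
Cel, chr2:28563404-28563653, minus strand: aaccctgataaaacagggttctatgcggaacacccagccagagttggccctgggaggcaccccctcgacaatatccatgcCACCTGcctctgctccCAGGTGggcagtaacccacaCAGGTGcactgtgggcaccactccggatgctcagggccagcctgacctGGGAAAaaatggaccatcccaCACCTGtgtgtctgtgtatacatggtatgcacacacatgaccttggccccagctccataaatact
Prss2, chr6:41521526-41521775, plus strand: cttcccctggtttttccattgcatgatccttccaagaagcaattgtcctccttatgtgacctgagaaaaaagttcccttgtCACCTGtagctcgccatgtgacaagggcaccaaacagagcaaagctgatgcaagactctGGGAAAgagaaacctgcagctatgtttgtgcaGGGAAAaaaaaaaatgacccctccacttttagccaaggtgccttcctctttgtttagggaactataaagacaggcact
Prss3, chr6:41377614-41377863, minus strand: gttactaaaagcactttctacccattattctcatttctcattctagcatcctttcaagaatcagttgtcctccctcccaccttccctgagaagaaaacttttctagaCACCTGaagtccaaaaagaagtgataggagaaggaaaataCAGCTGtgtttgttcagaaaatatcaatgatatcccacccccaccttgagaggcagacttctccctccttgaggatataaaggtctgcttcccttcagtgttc
Sycn, chr7:28540635-28540884, plus strand: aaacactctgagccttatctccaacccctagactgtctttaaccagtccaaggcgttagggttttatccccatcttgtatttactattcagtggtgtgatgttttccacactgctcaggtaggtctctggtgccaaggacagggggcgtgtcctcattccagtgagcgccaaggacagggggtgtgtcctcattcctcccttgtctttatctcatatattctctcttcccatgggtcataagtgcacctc

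The promoter table held 21 of the 26 measured genes, with 22 windows of 300 bases (250 before to 50 after the start), since Nr5a2 has 2 starts. Ctrc, Clps, Zg16, Dmbt1 and Tff2 had no window. CACCTG was found on either strand in 13 of the 22 windows, against 20.2% of all 32851 windows of the table. CAGCTG was found in 6 (16.3% of all) and TTTCCC in 7 (25.2%). A window with TTTCCC and at least 1 of the E-boxes CACCTG or CAGCTG occurred for 6 of the 22, against 8.16% of all. The wider E-box CANNTG, which includes both of the E-boxes just named, was in 19 (72.3%), AAGGTCA, a sequence that Nr5a2 binds, in 2 (4.72%), and TATAAA in 7 (13.6%). The Cel window had 4 copies of CACCTG and 1 TC-box. Prss2 had 2 TC-boxes and 1 CACCTG, and Prss3 had 1 CACCTG and 1 CAGCTG without a TC-box. The 2 CAGCTG copies of Cpa1 lie after the start and are not in the printed stretch. In the Sycn window none of these E-boxes, nor the TC-box, was found. The windows of Pla2g1b and Ptf1a held none of them either. Those of Pnliprp1 and Gp2, which followed the other acinar genes, had neither CACCTG nor CAGCTG nor the TC-box. The 5 printed genes were chosen after their values were seen, and a link of these letters to the values was not tested. These matches describe letters in a window and do not show binding.

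Pooled over the 4 groups, acinar genes differed far more between mice of the same group than most genes did. The SD between arrays within groups had a median of 1.07 over the 26 genes, against 0.16 over all 18820 genes. Of the 26, 22 lay above the 99th percentile of all genes (0.50). The groups were not alike in this. At 7 months the SD of Cel was 2.01 in WT and 0.23 in DKO, and that of Cpb1 1.82 and 0.34. Among the proteases and lipid enzymes, only Ctrc (0.96 in WT and 1.32 in DKO) and Prss3 (0.32 and 1.5) went the other way. Over the 14 arrays, 19 of the 26 spanned at least 10-fold. The 14 of these that stayed above the lowest array median (3.89) on every array ran from 13.5-fold for Prss2 to 29.9-fold for Cel. Of these 14, Dmbt1 was at 3.90 in WT replicate 4 at 7 months, within the range of the medians (3.89 to 3.98). The other 5 (Ctrc, Prss3, Pnliprp2, Gp2 and Cuzd1) were below the medians on at least 1 array, so their spans are not exact.

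To place each array, an acinar score was taken as the mean of the 26 genes, each centred on its own mean over the 14 arrays. In WT islets at 5 weeks the score was 0.36, -1.35, 0.49 and 0.60 in replicates 1 to 4. It was 1.23 and 0.74 in the 2 DKO arrays at that time. The 7-month values were -1.02, 0.69, -0.40 and -2.05 in WT and 0.06, 0.29, -0.03 and 0.41 in DKO. WT replicate 2 at 5 weeks and WT replicate 4 at 7 months stood lowest, while WT replicate 2 at 7 months was above every DKO array of its time. The WT arrays at 7 months covered 2.74 log2 units, 6.68-fold, and the 4 DKO arrays 0.44. Group means were 0.02 ± 0.92 (SD, n = 4) in WT and 0.99 ± 0.35 (n = 2) in DKO at 5 weeks, and -0.70 ± 1.15 (n = 4) and 0.18 ± 0.20 (n = 4) at 7 months.

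The ranks of single genes repeated this order. Within its group, WT replicate 2 at 5 weeks was lowest for 23 of the 26 genes. WT replicate 4 at 7 months was lowest for 20 and WT replicate 2 for 0, the latter being highest for 22. DKO replicate 1 at 5 weeks was higher than replicate 2 for 24. Of the 26 genes, 21 had their lowest value of all 14 arrays in either of the 2 low WT arrays.

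**Figure D1:**
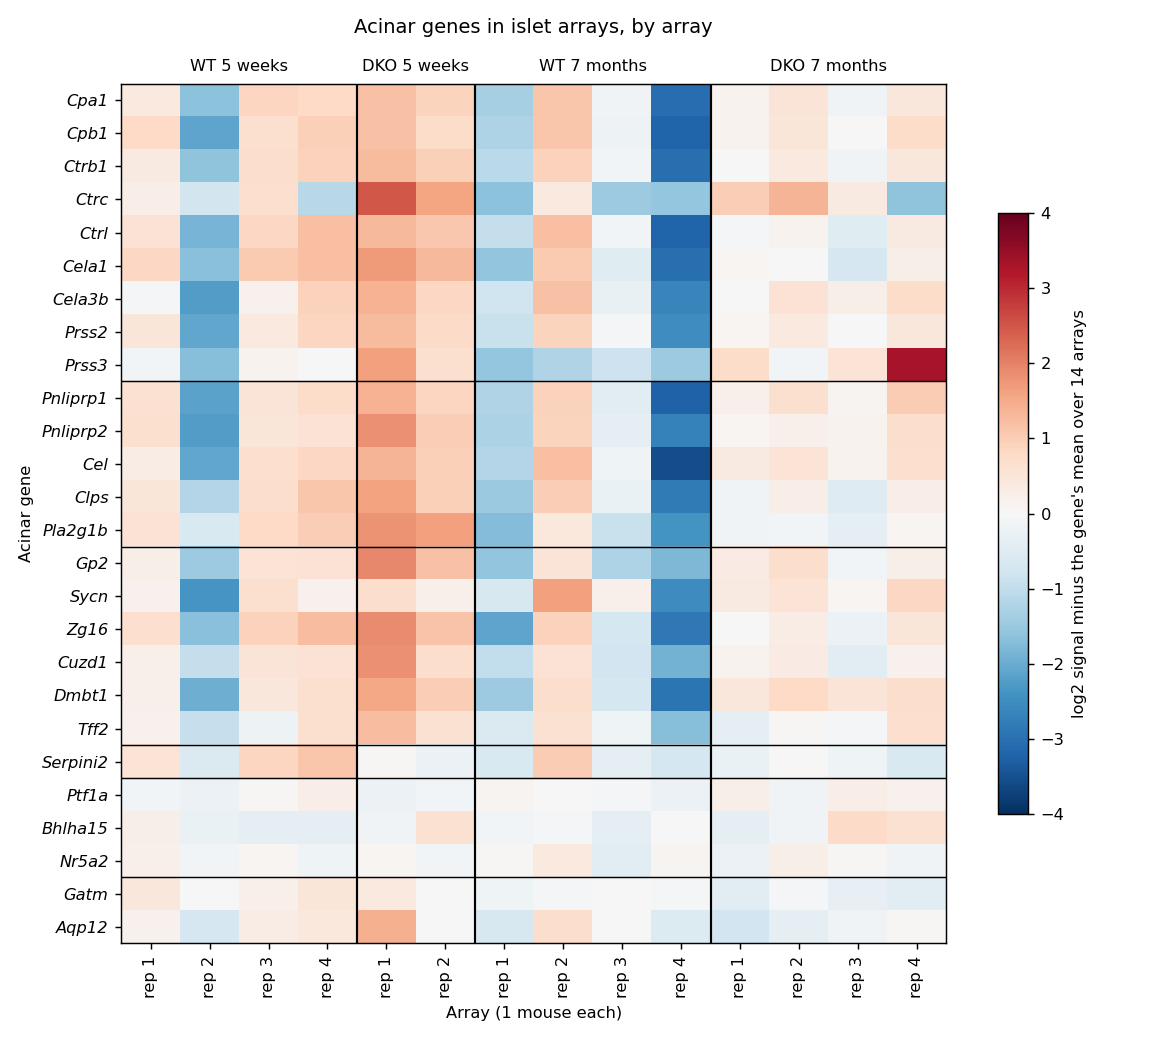
Log2 signal of the 26 measured acinar genes (rows, ordered by role: proteases, lipid enzymes, granule and other secreted proteins, the inhibitor Serpini2, transcription factors, metabolism and transport) on each of the 14 arrays (columns, by group), as the difference from the gene's mean over the arrays. WT replicate 2 at 5 weeks (score -1.35) and WT replicate 4 at 7 months (score -2.05) are blue for most genes, and Prss3 in DKO replicate 4 at 7 months (7.39) is the darkest red.

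Proteases were the largest role, with 9 measured genes. Cpa1 encodes carboxypeptidase A, which trims amino acids from the ends of peptides. Its signal in WT at 5 weeks was 10.32, 8.29, 10.80 and 10.74, against 11.12 and 10.84 in DKO. After 7 months it was 8.61, 11.04, 9.79 and 6.91 in WT and 10.09, 10.47, 9.79 and 10.40 in DKO. Both DKO arrays at 5 weeks lay above the 4 WT arrays, while at 7 months the WT arrays reached both below and above the DKO arrays. The difference of DKO from WT was 0.94 ± 0.85 (SE) at 5 weeks and 1.10 ± 0.69 at 7 months, and neither passed (limma adjusted p = 0.744 and 0.435).

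The carboxypeptidase B gene Cpb1, the chymotrypsinogen genes Ctrb1 and Ctrl and the elastase genes Cela1 and Cela3b were low and high in the same WT arrays at 7 months. In the low WT array at 7 months they were at 5.71, 7.79, 6.63, 5.14 and 4.06, and in the high one at 10.02, 11.73, 11.05, 9.20 and 7.85. Their DKO arrays at 7 months kept to a narrow band, from 8.91 to 9.66, 10.68 to 11.27, 9.37 to 10.22, 7.48 to 8.40 and 6.67 to 7.42 in the same order of genes. For these 5 genes the genotype difference ran from 0.89 ± 0.93 (Cpb1) to 1.43 ± 0.83 (Cela3b) at 5 weeks and from 0.76 ± 0.76 (Ctrl) to 1.22 ± 0.76 (Cpb1) at 7 months. None of them passed.

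Trypsinogens, the precursors of trypsin, which activates the other proteases in the gut, gave a mixed picture. Prss2 was 8.44, 5.85, 8.32 and 8.79 in WT and 9.22 and 8.72 in DKO at 5 weeks. It was 7.05, 8.83, 7.85 and 5.46 in WT and 8.03, 8.32, 7.91 and 8.38 in DKO at 7 months, with the same WT array lowest at each time as for Cpa1. Its DKO difference of 0.86 ± 0.64 at 7 months did not pass (adjusted p = 0.526).

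Prss3 was the 1 acinar gene past the threshold between genotypes. At 5 weeks its signal was 3.99, 2.39, 4.22 and 4.07 in WT and 5.72 and 4.72 in DKO. In mice fed for 7 months it was 2.53, 2.87, 3.25 and 2.65 in WT and 4.82, 3.99, 4.63 and 7.39 in DKO. At each time every DKO array was above every WT array. Replicate 4 of DKO at 7 months stood more than 2 log2 units above the next array of its group, at an acinar score of 0.41, and was the highest Prss3 value of all 14 arrays. At 7 months Prss3 rose in DKO by 2.38 ± 0.58 (5.22-fold, limma adjusted p = 0.0302, n = 4 and 4), and at 5 weeks the difference of 1.55 ± 0.71 did not pass (adjusted p = 0.399). That array was also the one with the high lymphocyte, stellate cell and macrophage markers, whose part in the Prss3 value was not tested. The 7-month difference was 1.66 without it and still passed, and it was lost when any of the 4 WT arrays at 7 months was left out (adjusted p between 0.0506 and 0.0841). The WT mean of 2.82 lay below the array medians, so the size of the change is not exact, and trypsinogen genes are near-identical copies whose probe sets can share signal.

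Ctrc, which encodes chymotrypsin C, a regulator of trypsinogen activation, also departed from the rest. It was 5.18, 4.17, 5.60 and 3.80 in WT and 7.41 and 6.50 in DKO at 5 weeks. In the 7-month arrays it was 3.28, 5.29, 3.46 and 3.38 in WT and 5.90, 6.26, 5.26 and 3.31 in DKO. The DKO arrays at 5 weeks did not overlap with WT, and at 7 months the groups overlapped, with DKO replicate 4 among the 3 low WT arrays and WT replicate 2 just above DKO replicate 3. Those low values lay below the array medians. DKO replicate 4 was again the array with the high lymphocyte markers. Its DKO difference of 2.27 ± 0.74 at 5 weeks was the largest of the 26 genes there and did not pass (adjusted p = 0.201), nor did 1.33 ± 0.60 at 7 months (adjusted p = 0.255).

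Among the lipid enzymes, Cel encodes the bile salt-dependent carboxyl ester lipase. In WT it was 8.73, 6.36, 9.12 and 9.26 at 5 weeks and 7.26, 9.65, 8.27 and 4.89 at 7 months. In DKO it was 9.79 and 9.39 at 5 weeks and 8.79, 8.98, 8.58 and 9.10 at 7 months. Its DKO arrays kept to 8.58 to 9.79, and the 29.9-fold span over all arrays came from WT replicate 4 at 7 months. The lipase-related genes Pnliprp1 and Pnliprp2 and the colipase gene Clps, whose product anchors lipase to fat droplets, spanned 24.8-fold, 22.8-fold and 21.5-fold, with that same array lowest. For these 4 genes the genotype differences ran from 1.00 to 1.53 at 5 weeks and from 0.88 to 1.48 at 7 months, and none passed.

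Pla2g1b encodes the secreted phospholipase A2 of pancreatic juice. It was 7.49, 6.29, 7.71 and 7.89 in WT and 8.70 and 8.54 in DKO at 5 weeks. The 7-month values were 5.17, 7.33, 6.00 and 4.50 in WT and 6.78, 6.81, 6.50 and 6.97 in DKO. Each DKO array at 7 months was below both DKO arrays at 5 weeks. From 5 weeks to 7 months it differed by -1.60 ± 0.46 in WT (adjusted p = 0.0967) and by -1.86 ± 0.57 in DKO (adjusted p = 0.0617), and neither passed. Both lay near the threshold. In DKO it passed in 8 of 24 other settings (adjusted p between 0.00234 and 0.302), among them the fit of only the arrays compared, and in WT in 1 of 24, without WT replicate 2 at 7 months (-2.12, adjusted p = 0.00624).

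Of the granule and other secreted proteins, Sycn encodes syncollin, a protein on the inner face of the zymogen granule membrane. Its signal in WT at 5 weeks was 8.61, 6.06, 9.08 and 8.61, against 9.15 and 8.63 in DKO. In WT at 7 months it was 7.79, 10.06, 8.64 and 5.93, against 8.79, 8.97, 8.50 and 9.26 in DKO. Unlike Pla2g1b, it differed by only 0.01 ± 0.72 between the times in WT and by -0.01 ± 0.88 in DKO.

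Gp2, the main glycoprotein of the granule membrane, was 5.07, 3.40, 5.40 and 5.41 in WT and 6.75 and 6.02 in DKO at 5 weeks. After 7 months it was 3.25, 5.36, 3.60 and 3.04 in WT and 5.17, 5.54, 4.72 and 5.08 in DKO. Only WT replicate 2 reached the DKO arrays at 7 months. Its differences of 1.56 ± 0.59 at 5 weeks and 1.31 ± 0.48 at 7 months did not pass (adjusted p = 0.288 and 0.15).

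Dmbt1, a secreted scavenger receptor glycoprotein, was 7.00, 4.87, 7.27 and 7.46 in WT and 8.37 and 7.79 in DKO at 5 weeks. In mice fed for 7 months it was 5.35, 7.53, 6.11 and 3.90 in WT and 7.26, 7.60, 7.34 and 7.52 in DKO. At 7 months 3 WT arrays lay below the DKO arrays and WT replicate 2 lay among them, and the difference of 1.71 ± 0.63 did not pass (adjusted p = 0.152). Without WT replicate 2 at 7 months it was 2.31, with Gp2 at 1.83 and Pla2g1b at 1.54, and all 3 then passed, while Prss3 did not (adjusted p = 0.0694). The array left out had the highest acinar score of WT at that time (0.69), and these genes mostly moved together. Over all 18820 genes, 528 to 1681 passed at 7 months when single arrays were left out in turn.

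The lectin gene Zg16, the zymogen granule gene Cuzd1 and the trefoil peptide gene Tff2 spanned 27.2-fold, 13.3-fold and 7.67-fold over the arrays, the last 2 with values below the array medians. Their genotype differences were 1.24, 1.19 and 1.01 at 5 weeks and 1.32, 0.81 and 0.54 at 7 months. None of the 3 passed.

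The inhibitor gene Serpini2, a serpin of acinar cells, was below every array median on all 14 arrays and had lower means in DKO. It was 3.31, 2.17, 3.63 and 3.88 in WT and 2.80 and 2.54 in DKO at 5 weeks. In the 7-month arrays it was 2.15, 3.77, 2.39 and 2.07 in WT and 2.49, 2.74, 2.58 and 2.16 in DKO. In WT its high and low arrays were those of the enzymes, but the 2 DKO arrays at 5 weeks, highest for most enzymes, were not raised. The difference was -0.58 ± 0.45 at 5 weeks (adjusted p = 0.684).

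Spink1, the trypsin inhibitor listed as Spink3, was 3.16, 2.45, 3.26 and 3.78 in WT and 4.31 and 3.50 in DKO at 5 weeks. It was 2.99, 3.55, 3.32 and 2.61 in WT and 3.34, 3.33, 3.23 and 4.19 in DKO at 7 months. It was low on the same 2 WT arrays, and its genotype differences of 0.74 ± 0.35 and 0.40 ± 0.29 did not pass (adjusted p = 0.425 and 0.508).

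The transcription factor genes did not share the spread of the enzymes. Ptf1a, which drives acinar fate, stayed between 2.21 and 2.73, and Nr5a2, a nuclear receptor that supports acinar enzyme expression, between 2.24 and 3.07. Both were below every array median on all 14 arrays, so little can be read from them. Bhlha15 (Mist1), which shapes the secretory apparatus, was well above the medians at 7.28 to 8.44. It was 7.59, 7.61, 7.30 and 7.70 in WT at 7 months, where the enzymes spread most, and did not have its lowest value in replicate 4. None of the 3 passed in any comparison.

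Gatm, which encodes the first enzyme of creatine synthesis and is abundant in acinar cells, was also steady. It was 8.43, 8.01, 8.18 and 8.48 in WT and 8.36 and 7.99 in DKO at 5 weeks. The 7-month values were 7.81, 7.89, 8.01 and 7.94 in WT and 7.55, 7.95, 7.64 and 7.53 in DKO. From 5 weeks to 7 months it differed by -0.37 ± 0.12 in WT (adjusted p = 0.169) and by -0.51 ± 0.15 in DKO (adjusted p = 0.0564), and neither passed. In DKO it passed in 7 of 24 other settings (adjusted p between 0.0159 and 0.479). The water channel gene Aqp12 was 3.02 to 5.20 over the arrays, highest in DKO replicate 1 at 5 weeks, and its differences did not pass.

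Across the list, DKO islets at 5 weeks had higher mean signals than WT for 22 of 26 genes, with a median difference of 1.07 against 0.01 over all genes, but 0 of 26 passed the limma test. Over all genes 0.994% passed. At an unadjusted p under 0.05 there were 5 acinar genes, against 12.1% of all genes. The SE of these differences had a median of 0.78, so a 2-fold difference was about as large as its own error. In 12 of the 26 genes both DKO arrays were above all 4 WT arrays, which was so for 11.2% of all genes. That count rests on groups of 4 and 2 arrays. Most of the 26 genes rose and fell together from array to array, so counts of genes are not counts of independent observations. The mean of 7 duct genes was 0.00 to 0.06 in the WT arrays and 0.12 to 0.24 in DKO at this time, with 0 of 7 past the threshold (3 unadjusted). Of 9 stellate cell and fibroblast genes 1, Acta2, was lower in DKO, with the list at -0.17 to 0.13 in WT and -0.32 to -0.07 in DKO. The part of these cells in the acinar values was not tested.

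At 7 months 22 of 26 genes again had a higher mean in DKO, with a median difference of 0.96 against 0.01 over all genes. Of these 1 passed, Prss3, and 5 were under 0.05 unadjusted, against 18.4% of all genes. Over all genes 4.71% passed in either direction and 2.44% were higher in DKO, so 1 of 26 is near the background. In 1 of the 26, again Prss3, every DKO array was above every WT array, which was so for 5.35% of all genes. The median SE was 0.63.

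Markers of other cell types differed between the genotypes at 7 months beside this. Of 9 stellate cell and fibroblast genes 6 were higher in DKO, with the mean of the list at -0.48 to -0.24 in the WT arrays and 0.28 to 0.99 in DKO. Among the 6, Lum (2.11 to 2.52) and Pdgfra (2.82 to 3.12) lay below the array medians on every WT array of this time. The sizes of these 2 differences are therefore not exact. The duct list (1 of 7 genes lower, Tspan8) was at -0.22 to 0.26 in WT and -0.20 to 0.04 in DKO, and of 12 beta cell genes 0 passed (3 unadjusted). Of 4 alpha cell genes 3 were lower in DKO (Gcg, Irx1 and Irx2), with the list at -0.12 to 0.02 in WT and -0.74 to -0.56 in DKO. Of 7 delta and PP cell genes 4 were lower (Ppy, Pyy, Rbp4 and Sst), at -0.02 to 0.18 in WT and -0.77 to -0.52 in DKO. The macrophage list had 3 of 8 genes higher (Itgam, Lyz2 and Mrc1), at -0.18 to -0.03 in WT and -0.03 to 0.63 in DKO. Of these, Itgam and Mrc1 lay below the array medians on all 14 arrays. Adgre1, Cd68, Csf1r, C1qa and C1qb did not pass, with differences of -0.06 to 0.28. Of 7 endothelial genes 2 were higher (Tek and Vwf) and 1 lower (Emcn), at -0.01 to 0.12 in WT and 0.20 to 0.41 in DKO. Vwf lay near or below the array medians in WT (3.56 to 3.94). None of 7 lymphocyte genes (0 unadjusted) or 5 adipocyte genes (1 unadjusted) passed, where 1 DKO array was far above the rest for the lymphocyte list. The part of these cells in the acinar values was not tested.

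From 5 weeks to 7 months the acinar genes had lower means in both genotypes. In WT 23 of 26 differences were below 0 with a median of -0.85 (0.03 over all genes). None passed in limma, against 2.37% of all genes, and 2 were under 0.05 unadjusted, against 14.6% of all. In 1 gene, Gatm, all 7-month arrays were below all 5-week arrays, against 3.66% of all genes. In DKO 24 of 26 were below 0 with a median of -0.80 (0.02 over all genes). There 0 of 26 passed, against 7.57% of all genes, and 5 were under 0.05 unadjusted, against 21.5% of all. This test pooled the spread of all 4 groups. The SD of the acinar score was 0.92 and 1.15 in WT and 0.35 and 0.20 in DKO at 5 weeks and 7 months. With only the DKO arrays fitted, Cela1, Ctrl, Pla2g1b and Zg16 passed in limma (adjusted p = 0.0254, 0.0416, 0.00234 and 0.0395). In that fit 347 of all 18820 genes passed. For 16 of the 26 genes the 4 DKO arrays at 7 months were below both at 5 weeks, against 11.1% of all genes, among them Cela1, Clps, Ctrc, Cuzd1, Gatm, Gp2, Pla2g1b and Zg16. This count also rests on only 2 arrays at 5 weeks and on genes that mostly moved together.

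Markers of other cells moved with time as well. In WT 2 of 4 alpha cell genes fell (Irx1 and Irx2), as did 1 of 7 delta and PP cell genes (Rbp4) and 2 of 9 stellate cell and fibroblast genes (Dcn and Pdgfra), of which Rgs5 rose. Of 7 endothelial genes Plvap and Tek rose, and of 5 adipocyte genes Fabp4 rose. In WT the alpha cell list was at 0.49 to 0.63 at 5 weeks and -0.12 to 0.02 at 7 months. In DKO 3 of 4 alpha cell genes fell (Gcg, Irx1 and Irx2), and of 7 delta and PP cell genes 5 fell and 1, Lepr, rose. The alpha cell list there was at 0.11 to 0.41 at 5 weeks and -0.74 to -0.56 at 7 months. Of the stellate cell and fibroblast genes 3 of 9 rose in DKO, of the endothelial genes 4 of 7 and of the macrophage genes 4 of 8. Among these macrophage genes, Itgam and Mrc1 lay below the array medians on all 14 arrays. Pdgfra did so on every WT array. Of 7 duct genes Krt7 rose and Tspan8 fell, and of 5 adipocyte genes only Fabp4 rose. Of these lists 2 of 7 duct genes and 4 of 5 adipocyte genes lay below the array medians on all 14 arrays. Little can therefore be read about these cells. The part of these cells in the acinar values was not tested.

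The 2 comparisons of genotype share no arrays with each other but share 1 estimate of spread. The change of the genotype difference with time was tested directly. It had a median of -0.10 over the 26 genes, and 0 passed, against 0.0903% of all genes. At an unadjusted p under 0.05 there were also 0, against 10.1% of all genes. Of the delta and PP cell genes 3 of 7 passed here (Pyy, Rbp4 and Sst, each more negative in DKO), a shift whose part in the acinar values was not tested. With a median SE of 1.0 for this term, a change of the genotype difference by 2-fold was within the error.

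**Figure D2:**
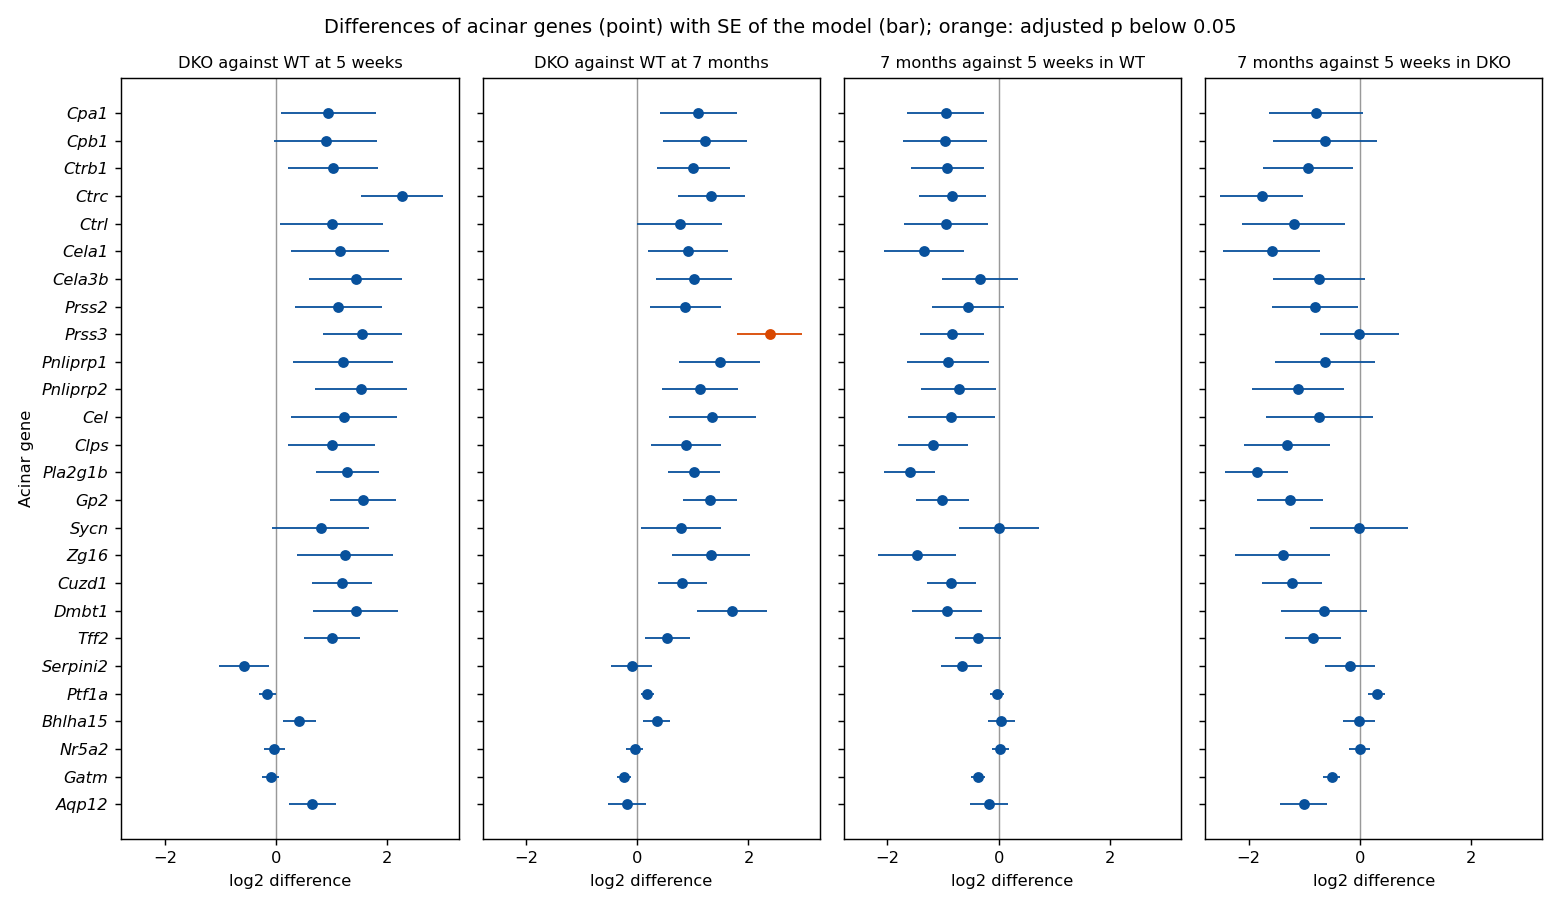
Log2 differences of the 26 acinar genes (points) in 4 comparisons with the SE of the model (bars) and 0 as a grey line. Most enzymes lie above 0 for DKO against WT and below 0 for 7 months against 5 weeks, with bars about as long as the differences, and Prss3 at 7 months (2.38 ± 0.58) is the only point past the threshold.

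The spread within groups was largely common to the enzymes. Each gene was fitted again with the mean of the other 25 acinar genes on each array as a covariate. For 18 of the 26 genes the SD within groups then fell below 0.5 of its former value, from 0.69 to 1.33 before to 0.11 to 0.33 after. Dmbt1 fell from 1.07 to 0.11, below the median of all genes, Cpb1 from 1.29 to 0.19 and Cel from 1.33 to 0.26. The slopes of these 18 genes on the others ran from 0.76 (Tff2) to 1.64 (Cel).

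For 8 genes the SD did not fall below 0.5 of its value. Ctrc (1.03 before, 1.01 after) and Prss3 (0.99 and 0.95) kept nearly the whole of a large spread. Serpini2 and Aqp12 fell to 0.52 and 0.65 of it. Ptf1a, Bhlha15, Nr5a2 and Gatm had little spread to share, with slopes between -0.05 and 0.09.

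**Figure D3:**
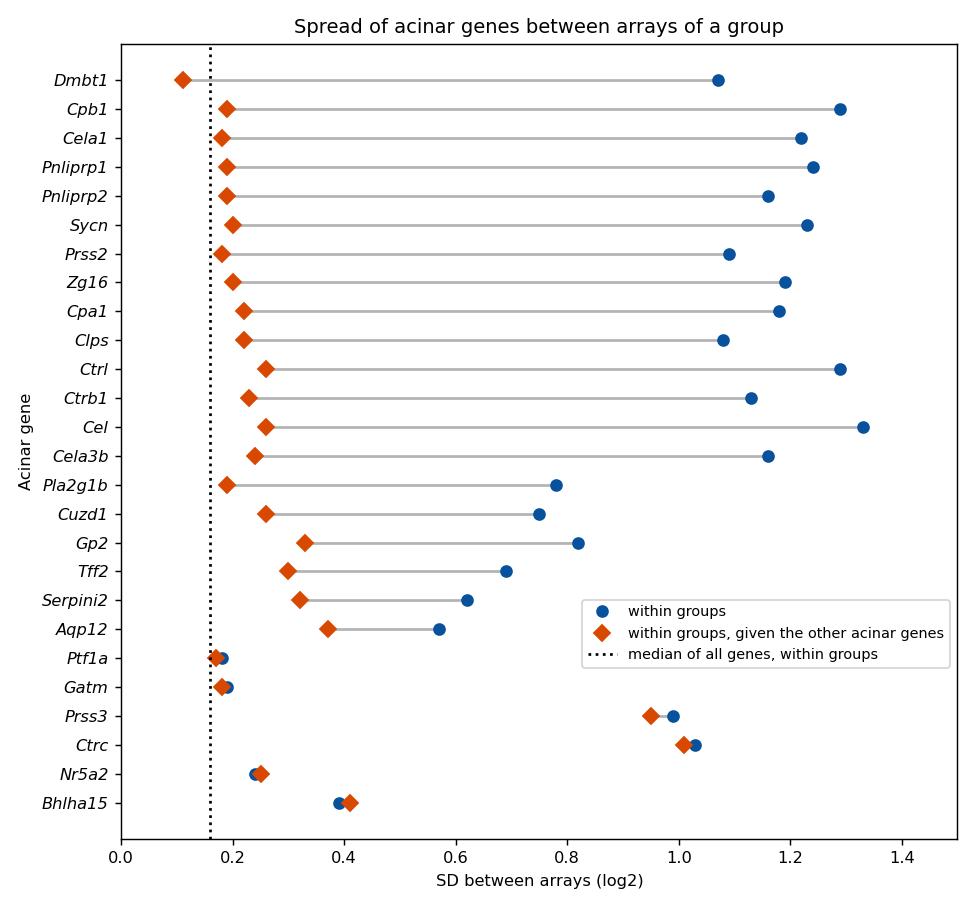
SD between arrays within groups (log2) for each acinar gene, before (circles) and after (diamonds) the mean of the other 25 acinar genes was added to the model, with the median of all genes within groups (0.16) as a dotted line. Enzymes such as Cel move from 1.33 to 0.26, whereas Ctrc and Prss3 stay at about 1.

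With this common level taken into account, a few acinar genes differed between groups relative to the others. At 5 weeks 0 of 26 passed in limma and 8 were under 0.05 unadjusted, where 0.537% of all genes passed with the acinar score as covariate and 10.2% were under 0.05 unadjusted. Serpini2 was closest, at -1.25 ± 0.26 in DKO (adjusted p = 0.0524). At the mean level of the other genes it was 3.25 ± 0.21 (SD, n = 4) in WT and 2.00 ± 0.04 (n = 2) in DKO. These DKO values (1.97 and 2.03) lie under its lowest measured signal of 2.07. The gene was below the array medians on all 14 arrays, so the size of this difference is not exact. Without the others in the model it was -0.58. Serpini2 given the others passed in 7 of 23 other settings (adjusted p between 0.0197 and 0.272), among them the fit without WT replicate 4 at 7 months.

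At 7 months 1 of 26 passed, against 3.32% of all genes, and 10 were under 0.05 unadjusted, against 16.7% of all. This was Dmbt1, higher in DKO by 0.59 ± 0.10 relative to the other acinar genes (1.51-fold, limma adjusted p = 0.00493). At the mean level of the others it was 6.55 to 6.67 in WT and 6.99 to 7.40 in DKO, with no overlap. Without WT replicate 2 at 7 months it no longer passed (0.60, adjusted p = 0.0682). Prss3 was 1.98 ± 0.60 higher relative to the others and did not pass (adjusted p = 0.0890).

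Between the times, Sycn and Pla2g1b moved apart in both genotypes. In WT 2 of 26 genes passed, against 1.49% of all genes, with 8 under 0.05 unadjusted, against 12.5% of all. Relative to the others Sycn rose by 1.14 ± 0.14 (2.2-fold, adjusted p = 0.00108) and Pla2g1b fell by 0.96 ± 0.14 (1.95-fold, adjusted p = 0.00281). In DKO 3 of 26 passed, against 4.68% of all genes, with 10 under 0.05 unadjusted, against 19.0% of all. Sycn rose by 1.24 ± 0.17 (2.37-fold, adjusted p = 0.00121), Pla2g1b fell by 1.15 ± 0.17 (2.22-fold, adjusted p = 0.00159) and Cpb1 rose by 0.67 ± 0.16 (1.59-fold, adjusted p = 0.0350). The 2 genotypes share no arrays here, but both differences came from 1 fit with a common slope and a common spread. The slope rests mostly on the WT arrays, where the acinar score covered 1.95 and 2.74 log2 units at the 2 times. In DKO it covered 0.5 and 0.44. The calls in WT were lost without both low WT arrays (adjusted p = 0.0518 for Sycn and 0.143 for Pla2g1b), with that of Pla2g1b also lost without WT replicate 2 at 5 weeks alone (0.0848). Those in DKO were lost when only the 6 arrays compared were fitted (adjusted p = 0.884 for Sycn and 0.506 for Pla2g1b), and Cpb1 passed in 14 of 24 settings.

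The pair can also be read without a model, as the log2 signal of Sycn minus that of Pla2g1b on each array, a contrast chosen after the values were seen. It was 1.12, -0.23, 1.37 and 0.72 in WT and 0.45 and 0.09 in DKO at 5 weeks. After 7 months it was 2.62, 2.72, 2.63 and 1.43 in WT and 2.01, 2.16, 2.00 and 2.29 in DKO. Every 7-month array was above every 5-week array, also on the 2 WT arrays with the least acinar signal, which were lowest within their groups. For the change of the genotype difference with time 0 of 26 passed relative to the others, against 0.0956% of all genes, with 3 under 0.05 unadjusted, against 9.71% of all.

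**Figure D4:**
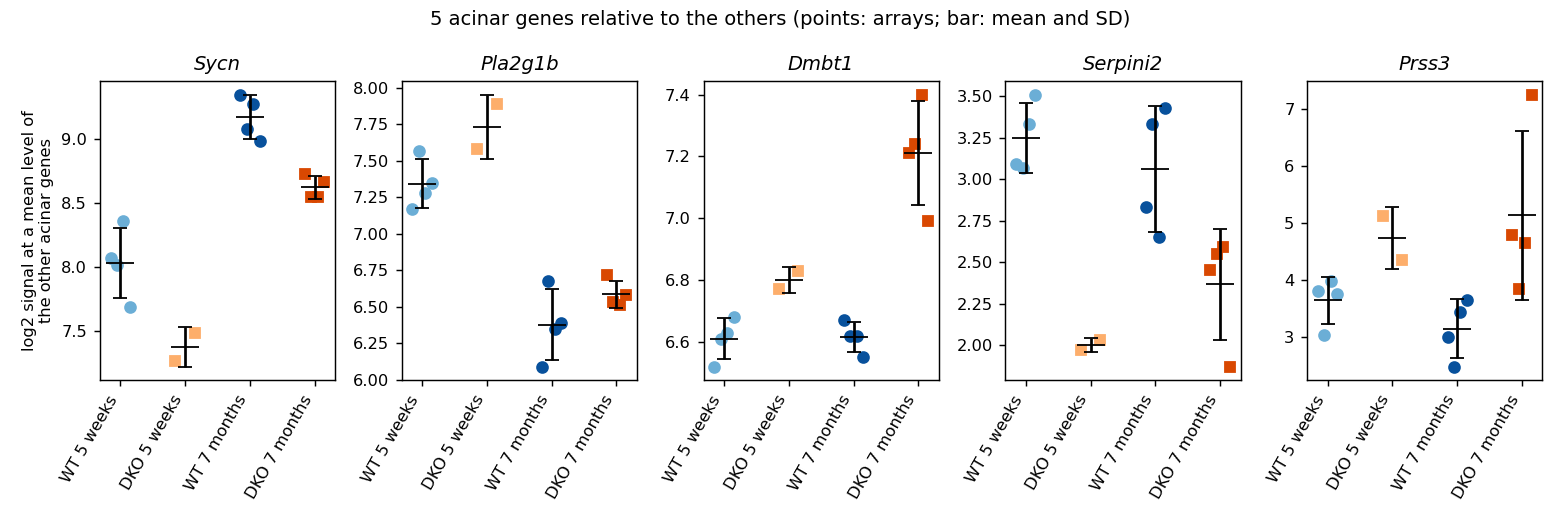
Log2 signal of 5 acinar genes on each array at the mean level of the other acinar genes (points), with the group mean and SD (bars). Sycn is higher and Pla2g1b lower at 7 months than at 5 weeks in both genotypes, Dmbt1 is higher in DKO at 7 months (mean 7.21 against 6.62 in WT), and Prss3 has 1 DKO array far above the others.

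Genes outside the list that followed the acinar score within groups were themselves acinar genes. Of 18794 genes outside the list, 6 were associated with the score in a limma model that held the group means (0.0319%), each with a positive slope. All 6 belong to a list of 20 other measured acinar genes, of which 14 did not pass. Slopes are log2 units of the gene per unit of the score. The trypsinogen gene family gave 4 of them, 2210010C04Rik (1.47 ± 0.08, adjusted p = 1.37e-06), Try5 (1.39 ± 0.11, adjusted p = 2.53e-05), Try10 (1.2 ± 0.10, adjusted p = 4.85e-05) and Try4 (1.07 ± 0.14, adjusted p = 0.00949). The others were the ribonuclease gene Rnase1 (1.40 ± 0.10, adjusted p = 8.41e-06) and Reg1, which encodes a lectin of pancreatic juice (1.40 ± 0.13, adjusted p = 0.000216). The score itself holds the trypsinogen genes Prss2 and Prss3. Probe sets of these near-identical genes can share signal, so the 4 trypsinogen genes may not be independent of the score.

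Rnase1 was 10.55, 8.39, 10.75 and 10.73 in WT and 11.02 and 10.90 in DKO at 5 weeks. In mice fed for 7 months it was 8.33, 10.64, 9.75 and 6.52 in WT and 10.01, 10.15, 9.62 and 10.25 in DKO. Reg1 was lowest in the same array, WT replicate 4 at 7 months, at 2.85, and 4.78 to 7.16 in the other WT arrays of that time. Without both low WT arrays only 2210010C04Rik still passed (1 gene, adjusted p = 0.00185).

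Of the 14 other acinar genes that did not pass, Pdia2, a pancreatic protein disulfide isomerase, came closest (0.69 ± 0.12, adjusted p = 0.166). The amylase gene Amy1 had a slope of 0.23 ± 0.06 and the cholecystokinin receptor gene Cckar 0.24 ± 0.13. Spink1 had a slope of 0.47 ± 0.10 (adjusted p = 0.607). Of the 20 other acinar genes 5 lay below the array medians on all 14 arrays, Amy1 among them (2.57 to 3.44). Cckar and Spink1 lay below the medians on most arrays. Little can therefore be read from the slopes of these 3 genes.

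**Figure D5:**
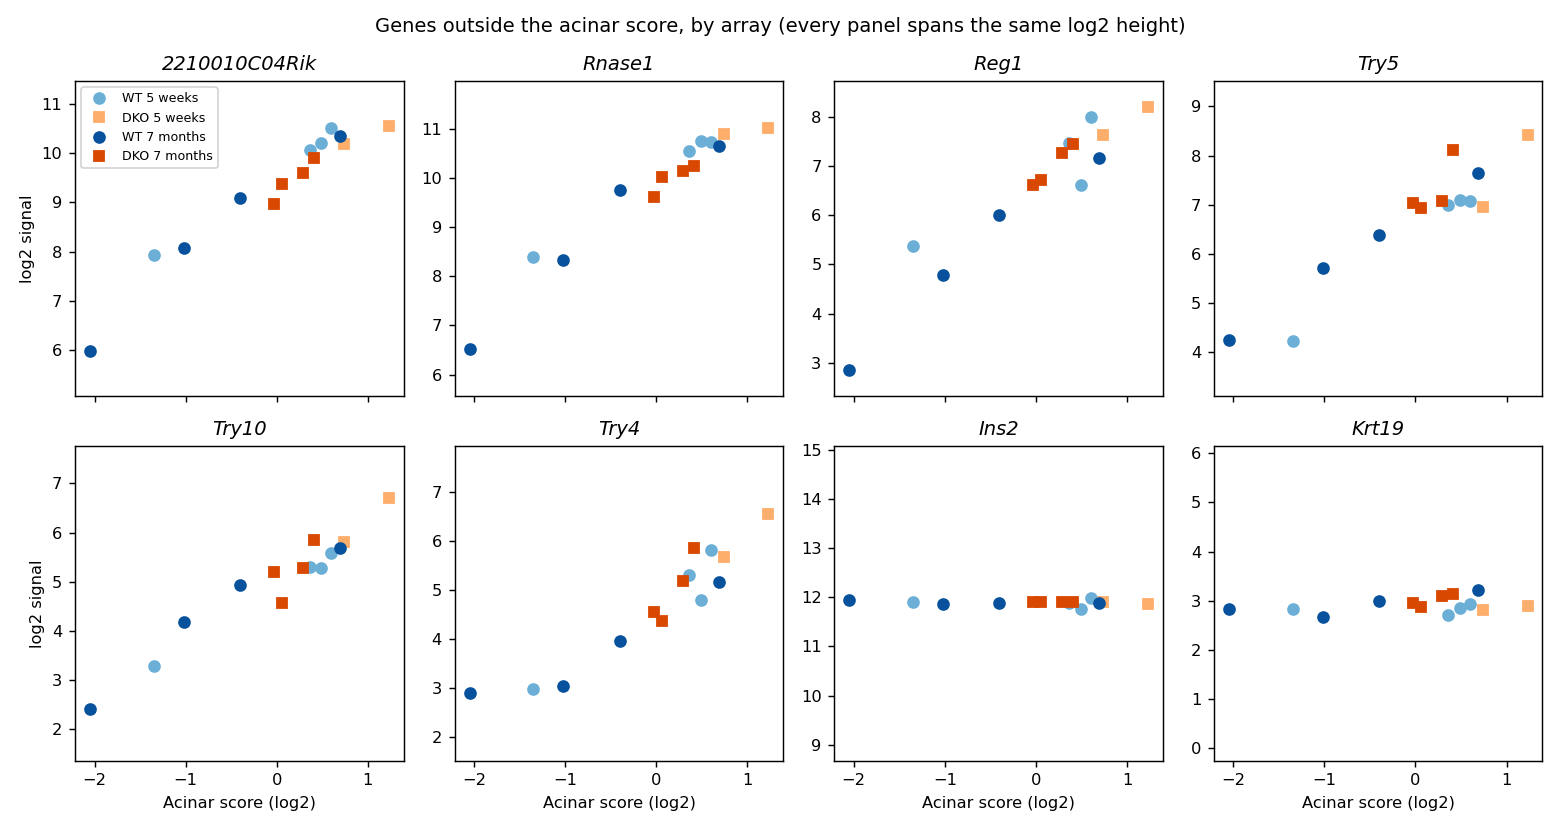
Log2 signal of 8 genes outside the acinar score (vertical axis, the same height in each panel) against the score of each array (horizontal axis), by group. The 6 acinar genes climb with the score, with slopes of 1.07 to 1.47, and the slopes of Ins2 (-0.02) and the duct gene Krt19 (0.11) are near 0. Little can be read from these 2, since Krt19 lies below the array medians on every array and whether the Ins2 probe set can show a change at 11.76 to 11.99 was not tested.

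No list of another cell type had a gene that followed the score past the threshold. Over 7 duct genes the median slope was 0.11 and the highest 0.25 (Muc1), with 0 passing and 2 unadjusted. Over 12 beta cell genes the slopes ran from -0.08 (Pdx1) to 0.07 (Nkx6-1), with 0 unadjusted. The stellate cell and fibroblast list had 0 of 9 past the threshold and 1 unadjusted, Dcn (0.41 ± 0.13). Of 4 alpha cell, 7 delta and PP cell, 7 endothelial, 8 macrophage, 7 lymphocyte and 5 adipocyte genes 0 passed and 0 were under 0.05 unadjusted, where 3.67% of all genes were. Of these genes 2 of 7 duct genes, 2 of 8 macrophage, 1 of 7 lymphocyte and 4 of 5 adipocyte genes were below the array medians on all 14 arrays, where little can be read.

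A few genes from the list of other acinar genes differed between groups without following the score. Tmed6, a cargo receptor of the early secretory pathway, was 5.38, 5.07, 5.19 and 5.42 in WT and 6.16 and 5.96 in DKO at 5 weeks. In the 7-month arrays it was 5.95, 5.87, 5.73 and 5.85 in WT and 6.63, 6.60, 6.72 and 6.72 in DKO. The genotypes were apart at each time, by 0.80 ± 0.11 at 5 weeks (1.74-fold, limma adjusted p = 0.00264) and 0.82 ± 0.09 at 7 months (1.77-fold, adjusted p = 0.000102), while its slope on the score was 0.06 ± 0.05. Rab3d, a small GTPase of secretory granules, was higher in DKO at 7 months by 0.59 ± 0.15 (1.5-fold, adjusted p = 0.0377), with a slope of -0.10 ± 0.08. On WT replicate 4 at 7 months, the array with the lowest acinar score, Tmed6 was at 5.85 and Rab3d at 8.57, not below the other WT arrays. Whether the signal of Tmed6 and Rab3d came from acinar cells was not tested. Tmed6 and Rab3d were the 2 of 20 that passed at 7 months (4.71% of all genes), and Tmed6 was the 1 of 20 at 5 weeks (0.994%). From 5 weeks to 7 months Tmed6 rose in WT (1 of 20, against 2.37%), and in DKO Tmed6 and Rab3d rose and Erp27, a protein of the endoplasmic reticulum, fell (3 of 20, against 7.57%).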

How the data were processed

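Total RNA (100 ng per sample) was labelled with biotin and hybridised to a whole-transcript array, per the labels' protocols. The authors deposited log2 values made with RMA, per the submitters' processing notes (version not given in the sources used here). Of 35556 probe sets, 21218 had 1 gene symbol in the platform annotation, 1881 several and 12457 none. Of 18820 genes 18790 were matched to a current symbol by Entrez ID, and 0 columns of per-sample values lacked a sample.

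A linear model was fitted with limma 3.58.1 in R 4.3.3 (lmFit, then eBayes at its default settings) to all 14 arrays, with 1 mean per group, for 5 comparisons, with Benjamini-Hochberg adjustment over all genes of each and a threshold of 0.05. The association with the acinar score used the group means and the score, over the genes outside the list. The number of arrays limits the precision, most of all in DKO at 5 weeks. The p-values measure the spread between these mice, pooled over the 4 groups. The members and lists were chosen with earlier results of these data known, so the higher acinar means in DKO and the spread among WT arrays, already seen then, are no independent support for anything here. Genes named beside the members are those of the lists past the threshold or with the lowest or highest slope, plus Ins2, Krt19, Tlr2 and Tlr4, and a few named for contrast after their values were seen. The scripts were tested on simulated data. Promoter windows came from RefSeq (GRCm38.p6). Alternatives were other sets of arrays, priors, filters, probe set rules, scalings and covariates, and each array left out in turn. Plots used matplotlib 3.10.9 under Python 3.11.15.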

Additional observations from a re-analysis of the deposited data

Results flagged for a closer look

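In groups of 4 arrays, 10 of 78 groups of acinar values held an array far from the others, its gap to the nearest, as a share of the group's range, exceeding Dixon's critical value. Chance alone flags about 5% of such groups, and the genes are not independent of each other.

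Of the 10, 8 were the same array, WT replicate 2 at 5 weeks, standing low. These were Cpb1 (6.81), Cela1 (6.48), Prss2 (5.85), Prss3 (2.39), Pnliprp1 (5.98), Pnliprp2 (4.32), Gp2 (3.40) and Sycn (6.06), which cover proteases, lipid enzymes and granule proteins. The other two were Ctrc in WT replicate 2 at 7 months, high at 5.29 against 3.28 to 3.46 in the other WT arrays of that time, and Bhlha15 in WT replicate 1 at 5 weeks, high at 7.91 against 7.32 to 7.41. WT replicate 4 at 7 months, the array with the lowest acinar score, was picked out for 0 of the 26 genes.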

How the results depend on the processing

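Of 6606 values of single genes under the alternatives, 6511 stayed on the same side of the threshold, 64 came to pass and 31 no longer passed, and of the differences past the threshold in either fit 0 changed sign (287 past it in neither did). With only the arrays compared, 120 genes passed at 5 weeks, 488 at 7 months and 347 between the times in DKO. Of the acinar genes 0 then passed at 7 months and 4 between the times in DKO, and given the others 1 at 5 weeks and 0 in the other two. A trended robust prior gave 282 genes at 5 weeks and 46 for the interaction, with 0 acinar genes at 7 months and 1 between the times in DKO, and 1, 2 and 5 given the others at 5 weeks, at 7 months and between the times in DKO. Without dim genes the interaction had 35, the acinar genes 0 at 7 months (Prss3 being left out as dim) and 2 between the times in DKO, and 1, 3 and 6 given the others. Repeated quantile normalization gave 1 acinar gene at 5 weeks given the others and 2 between the times in DKO, as did centring on the median (2). Array weights gave 786 genes between the times in WT, 28 for the interaction and 5 acinar genes given the others at 7 months. With the replicate block, 121 genes passed at 5 weeks, 864 between the times in DKO, 10 for the interaction and 2 acinar genes given the others at 7 months. Of 18 same-numbered pairs 1 had a correlation over 0.1 (-0.16 to 0.16), which cannot settle whether replicate numbers pair the mice. The labels also carry a number, 5 or 7, of unstated meaning, which was tried only as a covariate. The causes of these shifts were not tested.

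Leaving out both low WT arrays, chosen after seeing the data, gave 83 genes at 5 weeks, 552 at 7 months, 117 between the times in WT, 0 for the interaction and 1 associated with the score, a listed acinar gene. Of the acinar genes 0 then passed at 7 months and 1 between the times in DKO, and given the others 1 at 5 weeks and 0 between the times in WT. With single arrays left out the counts ran from 44 to 236 at 5 weeks, 528 to 1681 at 7 months, 221 to 527 between the times in WT, 378 to 2051 in DKO, 2 to 185 for the interaction and 5 to 7 for the score. For the acinar genes they ran from 0 to 3 at 7 months, 0 to 1 between the times in WT and 0 to 2 in DKO, and given the others from 0 to 1 at 5 weeks, 0 to 2 at 7 months, and 1 to 3 and 2 to 5 between the times. Over all genes, 57.2% of calls between the times in WT and 64.3% in DKO were higher at 7 months, against 40.0% and 45.3% with arrays centred on the median, where the medians of the acinar genes were -0.90 and -0.87. For Ptf1a, Nr5a2 and Serpini2, below the array medians, the signal limits what can be read.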
